A study of Danio rerio with 25 samples.

Results

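Far intergenic peaks are stretches of open chromatin that the deposited annotation places between genes and at least 50000 bases from the nearest transcription start site. Of the 61954 peaks in the set shared by all ATAC-seq libraries, 15408 were annotated as intergenic and 2883 (4.65%) met both conditions. ATAC-seq uses the Tn5 transposase to cut and tag open DNA, so that the number of reads in a peak measures how accessible it is. The libraries came from zebrafish hearts, and the study compared the epicardium, the thin sheet of cells that covers the heart, with other heart cells and across age and injury.

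Larval hearts were taken at 5 days after fertilization without treatment. With the reporter tcf21:H2B-Dendra2, there were 2 libraries of epicardium and 2 of non-epicardium. With the reporter tbx18:myr-Citrine, there were again 2 libraries of epicardium and 2 of non-epicardium. Adult epicardium carried the reporter tcf21:BirA-mCherry and was taken 3 days after cryoinjury, a wound made by freezing (4 libraries), or 3 days after sham surgery (2 libraries). All ATAC libraries were purified by FACS, which sorts cells by fluorescence. In each population the tcf21 or tbx18 reporter decides which cells count as epicardium, and larvae and adults carried different reporters, so that age and reporter cannot be told apart. RNA was sequenced from larval tcf21 epicardium and non-epicardium (3 libraries each, FACS) and from adult epicardium, with 3 libraries after cryoinjury and 2 after sham surgery, the adults by nuclear pulldown, so that in RNA age and purification cannot be told apart either. The labels do not say whether the libraries of a group came from separate animals, and p-values measure only the spread between these libraries, which may be technical.

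Open chromatin far from any start site often holds enhancers, stretches of DNA bound by transcription factors that raise the transcription of a gene at a distance. Enhancers tend to be open in fewer cell types than promoters, and large clusters of them lie in the gene-poor regions around genes that control development. The gene with the nearest start site is a convenient label for such a peak, but an enhancer may act on a gene farther away. Tcf21 and Tbx18 are transcription factors of the epicardium, a layer that gives rise to fibroblasts and mural cells and becomes active after heart injury.

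The peaks lay on 25 chromosomes, at 50026 to 374392 bases from a start site with a median of 76056 bases. Of the 2883, 1395 lay under 75000 bases away, 673 at 75000 to 100000, 549 at 100000 to 150000 and 266 beyond that, of which 91 lay 200000 bases or more away. A width of 501 bases was given to 96.6% of them. Their median GC fraction was 0.433, against 0.427 for all peaks, and their median CpG fraction was 0.020, against 0.022 for all peaks and 0.038 for promoter peaks. Positions are those of the deposited tables, whose build is GRCz10 per the submitters' processing notes. The nearest members to the limit were chr18:37527214-37527714, 50026 bases from a 5S rRNA gene, and chr13:9686598-9687098, 50027 bases from rnaset2. The intergenic peaks nearest to it on the other side lay 49993 and 49977 bases from a start site, both of genes with clone names.

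The farthest was chr14:42255249-42255749, 374392 bases from the start of the protocadherin gene pcdh10b. It was a weak peak, at 1.12 and 1.502 CPM (counts scaled to a common library total after TMM scaling) in tcf21 epicardium, 5.49 and 1.17 CPM in tcf21 non-epicardium, 6.04 and 7.18 CPM in tbx18 epicardium and 1.98 and 3.69 CPM in tbx18 non-epicardium. The next was chr14:42209523-42210023, 365066 bases from a 5S rRNA gene on the same chromosome. It had 15.7 and 18.0 CPM in tcf21 epicardium, against 1.995 and 1.17 CPM in tcf21 non-epicardium. With tbx18 it had 6.44 and 9.75 CPM in epicardium, against 1.26 and 1.58 CPM in non-epicardium. The groups did not overlap with either reporter, and the peak was higher in epicardium with tcf21 (log2 fold change 3.26 ± 0.83 SE, adjusted p = 0.00595) and with tbx18 (2.49 ± 0.73, adjusted p = 0.00904).

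Counts per library ranged from 755606 to 6248597 in all peaks and from 32751 to 216092 in far intergenic peaks. The shallowest library was one of tcf21 larval epicardium. In the deposited counts the lowest value is 1, which stands for 1 read or none. Between 1970 and 2882 of the 2883 peaks had more than 3 counts in a library, and 3 counts corresponded to 0.539 to 4.51 CPM. Marker genes were checked in RNA as summed levels. The 5 epicardial markers were tcf21, tbx18, wt1a, wt1b and aldh1a2. They include the genes of the reporters used for sorting, so their sums are not an independent check of it. They summed to 953 to 1398 CPM in larval epicardium, against 9.19 to 14.3 CPM in larval non-epicardium, and to 573 to 610 CPM after cryoinjury and 249.6 to 499 CPM after sham surgery. The markers of red blood cells (7 of 8 found) summed to 9.91 to 45.1 CPM in larval epicardium, against 12926 to 16219 CPM in larval non-epicardium. Those of leukocytes (8 of 8) summed to 698 to 762 CPM in larval epicardium, against 99.8 to 118 CPM in larval non-epicardium. Those of cardiomyocytes (9 of 10) summed to 15108 to 21074 CPM after cryoinjury and 20848 to 21167 CPM after sham surgery, against 225 to 1059.7 CPM in larval epicardium. In ATAC, the 44 peaks annotated to epicardial markers summed to 1057 to 1204 CPM in tcf21 epicardium, against 293 to 311 CPM in tcf21 non-epicardium. With tbx18 they summed to 963 to 1072 CPM in epicardium, against 449 to 457 CPM in non-epicardium.

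The share of counts in far intergenic peaks lay higher in each larval epicardium library than in the other larval heart cells, with either reporter. These peaks held 4.48% and 4.41% of the counts in the 2 tcf21 epicardium libraries, against 3.04% and 3.59% in the 2 tcf21 non-epicardium libraries. With tbx18 they held 4.04% and 4.05% in epicardium, against 3.26% and 3.03% in non-epicardium. In adult epicardium they held 4.07%, 3.77%, 3.45% and 4.10% after cryoinjury, against 3.67% and 3.54% after sham surgery. The epicardium libraries lay above the non-epicardium libraries of the same reporter without overlap, and the cryoinjury libraries overlapped with the sham libraries. In bulk samples, fewer cells of a type and less open chromatin or RNA per cell cannot be told apart.

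The mean share was 4.45 ± 0.0497% in tcf21 epicardium and 3.31 ± 0.388% in tcf21 non-epicardium (SD, n = 2 each), a difference of 1.13 percentage points. It was 4.05 ± 0.00779% in tbx18 epicardium and 3.15 ± 0.164% in tbx18 non-epicardium (SD, n = 2 each), a difference of 0.903 points. Each gave p = 0.33 in an exact permutation test, two-sided, which is the smallest that 2 libraries against 2 allow. Cryoinjury averaged 3.85 ± 0.304% (SD, n = 4) and sham 3.60 ± 0.0922% (SD, n = 2), and the difference of 0.245 points lay within the spread of the cryoinjury libraries (exact permutation p = 0.33, smallest possible 0.0667). Against tcf21 larval epicardium, the share was lower by 0.598 points after cryoinjury (exact permutation p = 0.133) and by 0.843 points after sham surgery (exact permutation p = 0.33), with no overlap in either case. In larvae, intergenic peaks nearer to a start site went the same way as the far ones. These nearer peaks held 23.4% of the counts in tcf21 epicardium, against 19.5% in tcf21 non-epicardium. With tbx18 they held 18.7% in epicardium, against 17.3% in non-epicardium. The higher share in epicardium was thus not particular to far intergenic peaks. Promoter peaks went the other way in larvae, with 24.7% of the counts in tcf21 epicardium, against 32.9% in tcf21 non-epicardium. With tbx18 they held 30.8% in epicardium, against 35.7% in non-epicardium.

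**Figure D1:**
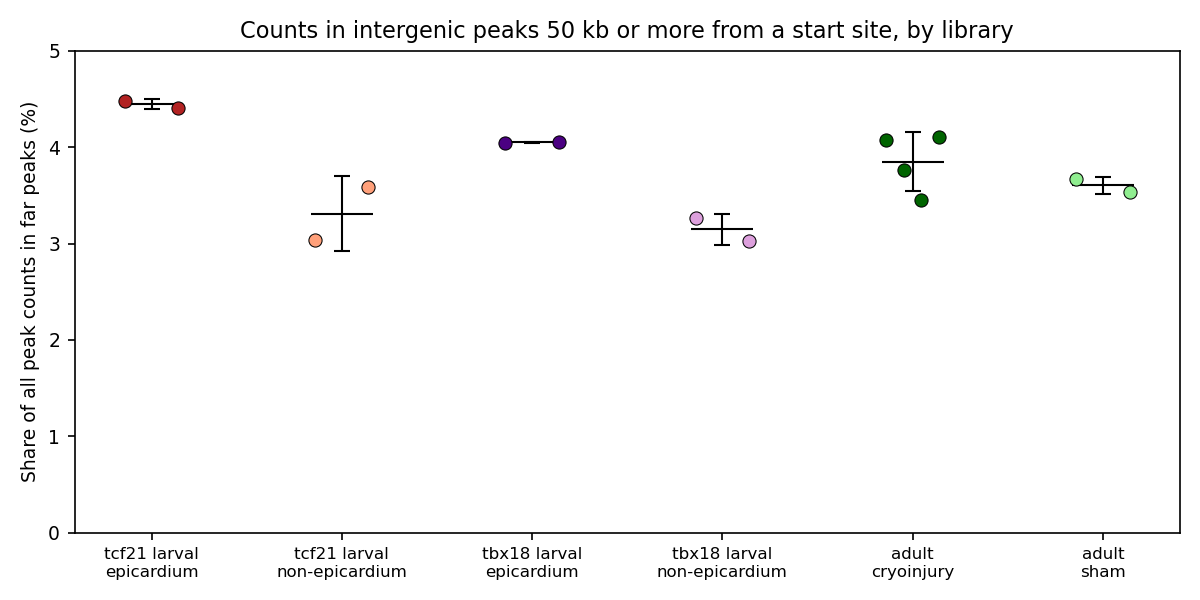
Share of all peak counts that fell in far intergenic peaks (%, vertical axis) in each of the 14 ATAC libraries, by group (horizontal axis). Points are libraries, the wide bars are group means and the whiskers are 1 SD. The 2 tcf21 epicardium libraries lie highest, at 4.41% and 4.48%, and 3 of the 4 non-epicardium libraries lie at 3.26% or less.

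The median far intergenic peak had a group mean of 8.98 CPM in tcf21 epicardium and 6.91 CPM in tcf21 non-epicardium, 8.23 CPM in tbx18 epicardium and 6.30 CPM in tbx18 non-epicardium, and 8.26 CPM after cryoinjury and 7.50 CPM after sham surgery. The group with the highest mean was tcf21 epicardium for 726 of the peaks (25.2%, against 18.8% of all peaks) and tbx18 epicardium for 746 (25.9%, against 19.3% of all peaks). It was tcf21 non-epicardium for 301 (10.4%, against 15.2%), tbx18 non-epicardium for 450 (15.6%, against 19.2%), cryoinjury for 341 (11.8%, against 13.3%) and sham for 317 (11.003%, against 14.3%).

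To ask which far intergenic peaks distinguish larval epicardium from other larval heart cells, each peak was tested with edgeR's quasi-likelihood test over all peaks, and a peak with a Benjamini-Hochberg adjusted p under 0.05 is referred to as called. Of the 2883, 2881 passed the filter on low counts. With tcf21, 332 were higher and 108 lower in epicardium. That is 11.5% higher and 3.75% lower, while of all 61883 tested peaks 6.69% were higher, 6.55% lower and 13.2% called in all. With tbx18, 655 (22.7%) were higher and 358 (12.4%) lower in epicardium, while of all tested peaks 13.8% were higher, 13.1% lower and 26.9% called in all. The median log2 fold change of far intergenic peaks was 0.38 with tcf21, against -0.01 over all peaks, and 0.34 with tbx18, against -0.16 over all peaks. Small even counts were 2.05 to 3.41 times as frequent as odd ones in the tbx18 libraries. These ratios were 1.21 to 1.95 in the tcf21 larval libraries and 1.04 to 1.37 in the adult libraries. Counts are thus not all single independent reads, most clearly with tbx18.

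Peaks annotated to markers of other heart cells also differed between the tbx18 libraries. The 15 peaks of cardiomyocyte markers summed to 263 to 292 CPM in tbx18 epicardium, against 150.4 to 157 CPM in tbx18 non-epicardium, and with tcf21 to 75.4 to 112 CPM in epicardium, against 82.1 to 85.8 CPM in non-epicardium. The 13 peaks of leukocyte markers summed to 61.4 to 78.0 CPM in tbx18 epicardium, against 36.7 to 45.3 CPM in tbx18 non-epicardium, and with tcf21 to 83.4 to 138 CPM in epicardium, against 95.0 to 102 CPM in non-epicardium. Both sums were thus higher in epicardium with tbx18 and overlapped between the groups with tcf21. The 63 peaks of endothelial markers and the 26 of red blood cell markers were lower in epicardium with either reporter. Endothelial peaks summed to 987 to 1074 CPM in tbx18 epicardium, against 1775 to 1849 CPM in tbx18 non-epicardium, and to 659 to 664 CPM in tcf21 epicardium, against 834 to 887 CPM in tcf21 non-epicardium. Red blood cell peaks summed to 304 to 325 CPM in tbx18 epicardium, against 547 to 610.3 CPM in tbx18 non-epicardium, and to 243 to 334 CPM in tcf21 epicardium, against 669 to 1022 CPM in tcf21 non-epicardium. The part of these cells in the calls, and in the differences between the reporters, was not tested.

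With tcf21, the 12506 tested intergenic peaks nearer than 50000 bases lay between far intergenic peaks and all peaks, with 8.17% higher and 4.95% lower. With tbx18, 16.8% of them were higher and 14.2% lower. That lower share was above those of far intergenic peaks (12.4%) and of all peaks (13.1%). Promoter peaks were more often lower than higher with tcf21, at 2.53% higher and 10.1% lower. Within the far intergenic peaks the share called higher with tcf21 was 11.1% under 75000 bases, 12.8% at 75000 to 100000, 12.02% at 100000 to 150000 and 9.40% beyond that. Leaving out tcf21 non-epicardium replicate 1, the deeper library of its group, left 123 higher and 51 lower with tcf21. Leaving out tcf21 epicardium replicate 2, the shallowest library, left 216 higher and 56 lower, and leaving out tbx18 non-epicardium replicate 1 left 348 higher and 219 lower with tbx18. In these fits 4.43%, 7.05% and 15.1% of all tested peaks were called, in that order, so the calls fell over all peaks too.

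**Figure D2:**
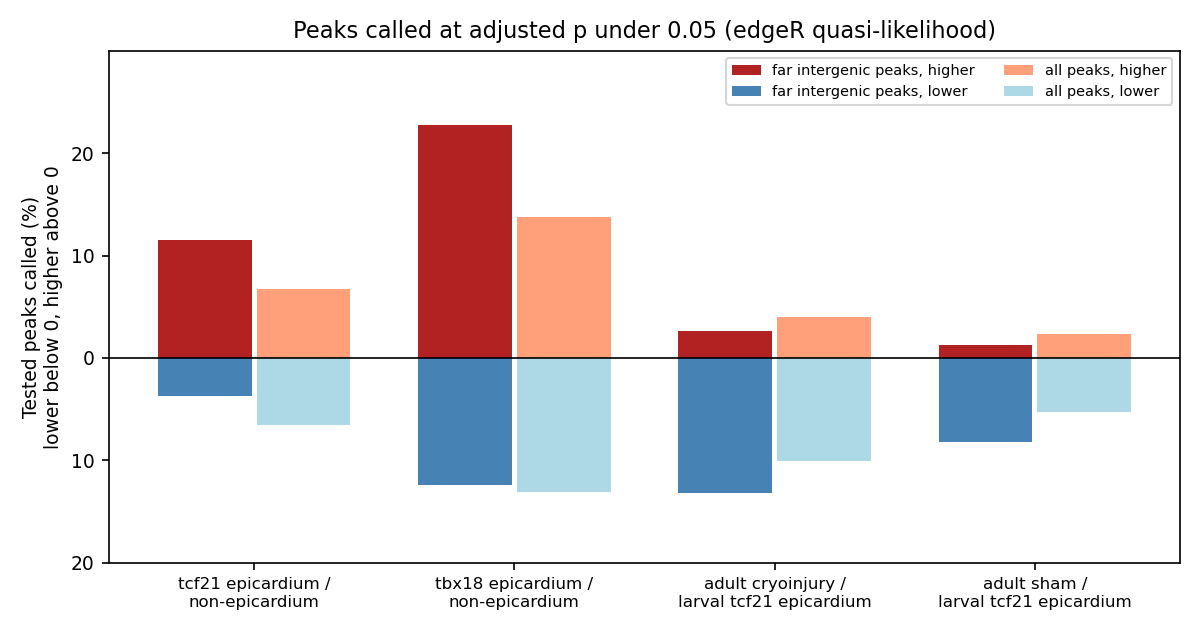
Tested peaks called at an adjusted p under 0.05 (%, vertical axis, higher above 0 and lower below 0) in 4 comparisons (horizontal axis), with far intergenic peaks on the left and all peaks on the right of each pair. In larval epicardium the far peaks exceed all peaks on the higher side (11.5% against 6.69% with tcf21), and in adult against larval epicardium they exceed them on the lower side (13.2% against 10.1% after cryoinjury).

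The reporters were compared peak by peak, since their libraries are separate. Of the 332 far peaks that were higher in tcf21 epicardium, 255 passed in the same direction with tbx18, which is 76.8% of the first set and 38.9% of the 655 in the second. Of the 108 lower with tcf21, 65 were also lower with tbx18, 60.2% of the first set and 18.2% of the second. Over all peaks, 69.5% of those higher with tcf21 were higher with tbx18 and 48.4% of those lower were lower. Across the 2881 far peaks, the log2 fold changes of the reporters had a Pearson's r of 0.560 and a Spearman's rho of 0.520, and 1909 (66.3%) had the same sign. Over all peaks r was 0.539, rho was 0.461 and 65.8% had the same sign, so that far peaks and all peaks were alike in sign. Neighbouring peaks and peaks of like depth are not independent points. Neither reporter called 1753 of the far peaks, a count that was not set beside that of all peaks. Over the 5 pairwise comparisons together, 53.6% of far peaks had no call, against 59.5% of all peaks.

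**Figure D3:**
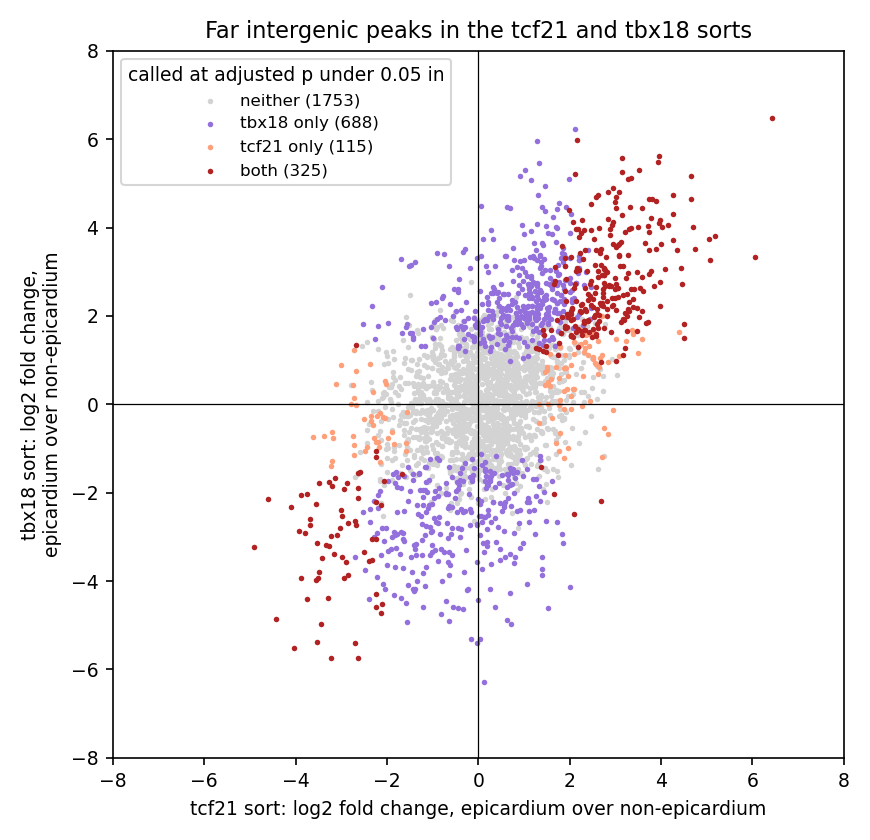
Log2 fold change of each of 2881 far intergenic peaks, epicardium over non-epicardium, with tcf21 (horizontal axis) and tbx18 (vertical axis). Colours show in which reporter a peak was called, with 325 called in both, and 255 of these lie in the upper right and 65 in the lower left.

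The 3 named far peaks with the largest increases in tcf21 epicardium lay near nlgn1, cmc2 and dmrta2. The peak chr11:10115547-10116047, 113999 bases from the start of nlgn1, a gene of a synaptic adhesion protein, had 73.8 and 123 CPM in tcf21 epicardium, against 0.499 and 2.33 CPM in tcf21 non-epicardium. With tbx18 it had 75.7 and 107 CPM in epicardium, against 0.719 and 1.58 CPM in non-epicardium. In adult epicardium it had 5.29, 7.41, 6.34 and 6.79 CPM after cryoinjury, against 3.75 and 10.1 CPM after sham surgery. It was open in the larval epicardium of either reporter, near the floor in the other larval heart cells and low in every adult library. Since the tcf21 non-epicardium libraries held 1 and 2 counts, the ratio of epicardium to non-epicardium was 90.5, with a 95% exact interval of 30.4 to 444 for counting error only. The interval treats counts as independent, and a count of 1 may stand for no read. Since small even counts were 1.21 to 1.95 times as frequent as odd ones in the tcf21 larval libraries, the interval may be too narrow. In the tbx18 libraries this excess was larger (2.05 to 3.41 times). The log2 fold change was 6.47 ± 0.59 with tbx18 (edgeR quasi-likelihood, adjusted p = 4.25e-10). RNA of nlgn1 was at 13.3, 3.30 and 7.12 CPM in larval epicardium, against 6.14, 0.191 and 0.417 CPM in larval non-epicardium, and was not called (adjusted p = 0.395).

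The peak chr8:16137016-16137516, 86085 bases from dmrta2, a transcription factor gene of the doublesex family, had 78.3 and 91.6 CPM in tcf21 epicardium, against 3.49 and 2.33 CPM in tcf21 non-epicardium. With tbx18 it had 89.1 and 77.5 CPM in epicardium, against 5.39 and 10.01 CPM in non-epicardium. The groups were far apart with either reporter (log2 fold change 4.75 ± 0.57 with tcf21, adjusted p = 1.68e-07, and 3.52 ± 0.46 with tbx18, adjusted p = 2.93e-07). The peak chr18:29834157-29834657, 85690 bases from cmc2, had 32.4 and 22.5 CPM in tcf21 epicardium, against a count of 1 in each non-epicardium library, which makes it at least 11-fold higher against a floor of 3 counts per library. In adults it had 20.3, 21.4, 10.7 and 13.99 CPM after cryoinjury, against 37.5 and 19.6 CPM after sham surgery, and neither adult group was called against larval tcf21 epicardium.

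With tbx18 the largest increases after nlgn1 were at chr14:38109144-38109644, 204592 bases from rnasel3, and chr13:2944630-2945130, 77013 bases from pkdcca. The rnasel3 peak had 27.4 and 21.6 CPM in tbx18 epicardium, against a count of 1 in each non-epicardium library, at least 23.1-fold higher. The pkdcca peak had 23.7 and 17.4 CPM in tbx18 epicardium, against a count of 1 in each non-epicardium library, at least 19.4-fold higher. The gene pkdcca, which encodes a secreted kinase, was the annotated gene of 7 far peaks, of which 3 were higher with tcf21 and 4 with tbx18, and none was lower.

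The largest decreases in tcf21 epicardium lay near cbfa2t3, vegfaa and lrch3, and those in tbx18 epicardium near znf804b, dll4 and lrch3. The peak chr7:55483457-55483957, 77278 bases from cbfa2t3, a transcriptional corepressor gene of blood lineages, had 2.24 and 6.01 CPM in tcf21 epicardium, against 115 and 73.5 CPM in tcf21 non-epicardium. With tbx18 it had 18.1 and 14.4 CPM in epicardium, against 66.2 and 79.0 CPM in non-epicardium. The RNA of cbfa2t3 fell in larval epicardium too, with 24.2, 18.7 and 27.3 CPM, against 121, 146 and 118 CPM in larval non-epicardium (log2 fold change -2.45 ± 0.52, adjusted p = 0.00325). The 26 peaks annotated to red blood cell markers summed to 243 to 334 CPM in tcf21 epicardium, against 669 to 1022 CPM in tcf21 non-epicardium, and to 304 to 325 CPM in tbx18 epicardium, against 547 to 610 CPM in tbx18 non-epicardium. The part of red blood cells in the decreases was not tested.

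The peak chr18:3603037-3603537, 65720 bases from lrch3, had 2.24 and 9.01 CPM in tcf21 epicardium, against 129 and 40.8 CPM in tcf21 non-epicardium. With tbx18 it had 0.201 and 2.57 CPM in epicardium, against 41.7 and 50.6 CPM in non-epicardium. The peak chr16:28081290-28081790, 58355 bases from znf804b, had 0.201 and 1.03 CPM in tbx18 epicardium, against 29.3 and 24.8 CPM in tbx18 non-epicardium. In these epicardium libraries 3 counts were 0.604 and 1.54 CPM. The lrch3 peak in replicate 1 and the znf804b peak in both replicates lay below 3 counts. Over 21 alternatives the tbx18 log2 fold change of the znf804b peak ran from -6.76 to -4.65. The lrch3 and znf804b peaks were lower in epicardium with either reporter, and in adults the znf804b peak had 1.76, 5.67, 1.67 and 7.41 CPM after cryoinjury, against 14.7 and 15.2 CPM after sham surgery.

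Some genes had far peaks that went in opposite directions. For vegfaa, the gene of a growth factor of blood vessels, the peak chr16:4546285-4546785, 57945 bases from the start, had 6.71 and 6.01 CPM in tcf21 epicardium, against 153 and 64.2 CPM in tcf21 non-epicardium. The peak chr16:4554077-4554577, 65737 bases from the same start, had 77.2 and 73.6 CPM in tcf21 epicardium, against 25.9 and 10.5 CPM in tcf21 non-epicardium. These peaks lay less than 10000 bases apart, and each kept its direction with tbx18 (log2 fold changes -2.33 ± 0.51 and 1.97 ± 0.39). The RNA of vegfaa rose in larval epicardium, with 255, 200 and 322 CPM, against 32.0, 49.3 and 28.0 CPM in larval non-epicardium (log2 fold change 2.83 ± 0.54, adjusted p = 0.00135).

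For dll4, the gene of a Notch ligand of vessels, the peak chr20:28214176-28214676, 131648 bases from the start, had 35.8 and 79.6 CPM in tcf21 epicardium, against 1.995 and 6.999 CPM in tcf21 non-epicardium. The peak chr20:28290279-28290779, 55545 bases from the start, had 7.83 and 6.01 CPM in tcf21 epicardium, against 62.4 and 71.2 CPM in tcf21 non-epicardium. With tbx18 the farther of them had 47.1 and 41.6 CPM in epicardium, against 2.16 and 1.05 CPM in non-epicardium, and the nearer had 0.201 and 2.57 CPM in epicardium, against 49.99 and 57.4 CPM in non-epicardium. The 0.201 CPM of the nearer peak lay below 3 counts, which were 0.604 CPM in that library. Each direction appeared with either reporter. The 63 peaks annotated to endothelial markers summed to 659 to 664 CPM in tcf21 epicardium, against 834 to 887 CPM in tcf21 non-epicardium. With tbx18 they summed to 987 to 1074 CPM in epicardium, against 1775 to 1849 CPM in non-epicardium. In RNA the endothelial markers overlapped, at 249 to 358 CPM in larval epicardium, against 194 to 330 CPM in larval non-epicardium. The part of endothelium in the vegfaa and dll4 values was not tested. The RNA of dll4 rose in larval epicardium (97.4, 27.9 and 82.0 CPM, against 10.5, 10.1 and 5.84 CPM in larval non-epicardium, adjusted p = 0.00246).

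The genes pcdh10b, jun and tshz3b also held far peaks called in opposite directions with the same sign in either reporter. Over all annotated genes, 83 had 2 or more far peaks called with tcf21, of which 51 had only higher, 8 only lower and 24 both kinds. With tbx18, 220 had 2 or more, of which 108 had only higher, 38 only lower and 74 both kinds. The same counts were not made for nearer peaks or all peaks, so they do not show whether mixed directions are particular to far peaks.

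**Figure D4:**
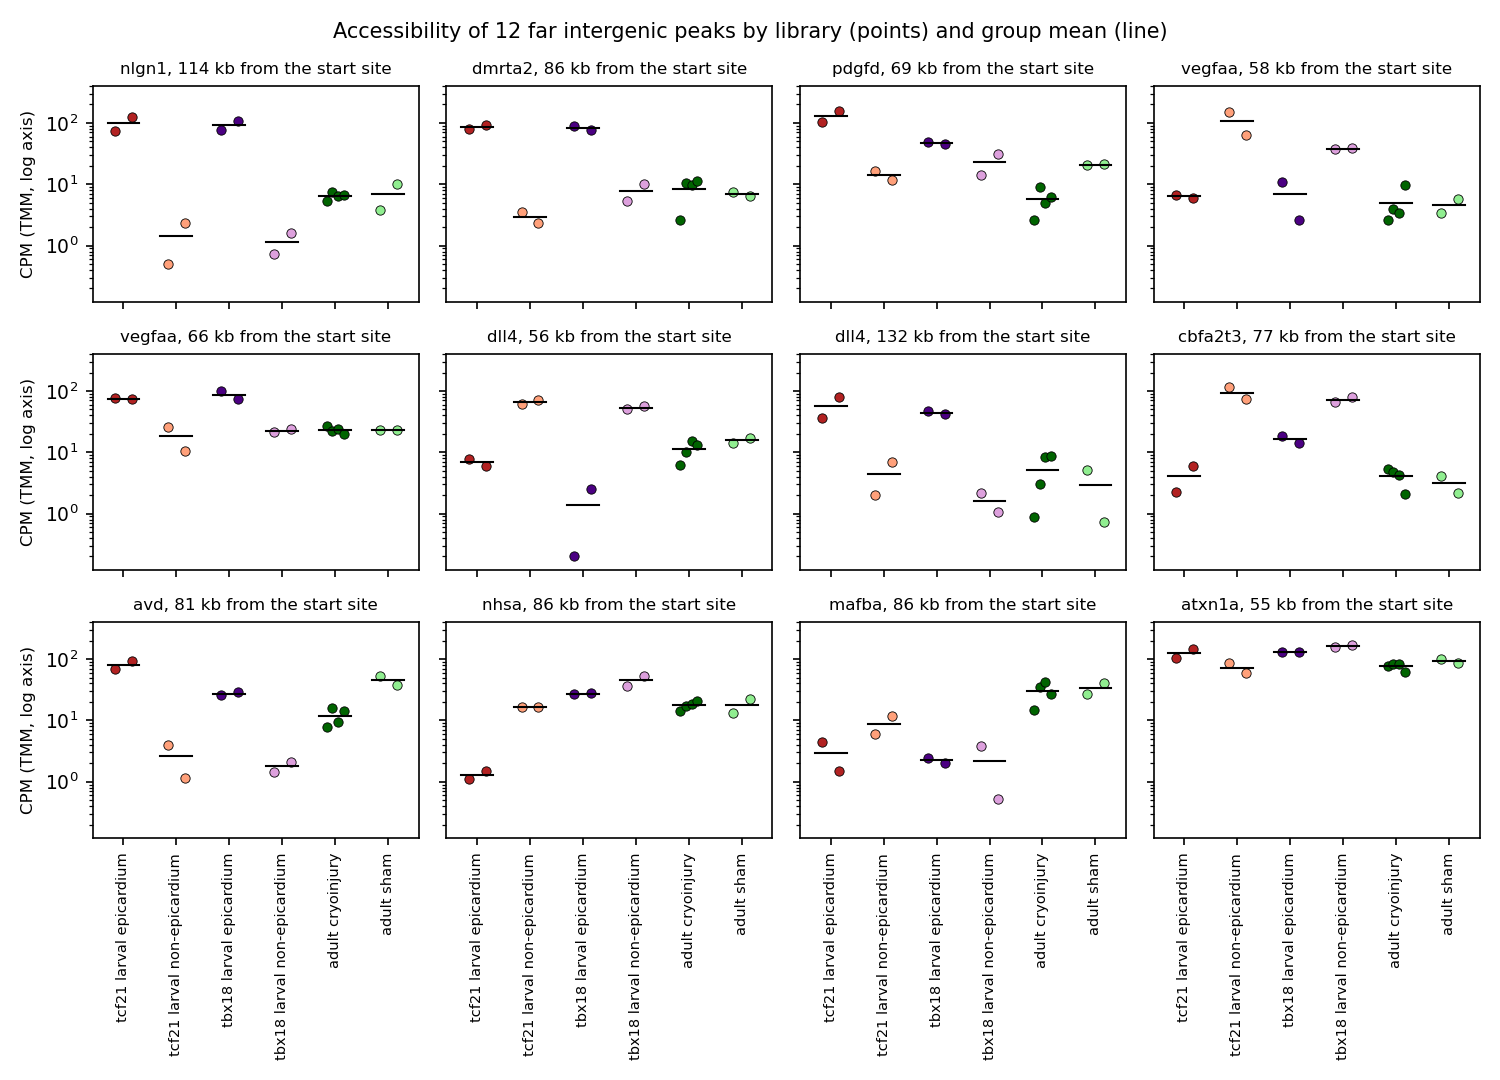
Accessibility (CPM, log axis) of 12 far intergenic peaks in each library (points) by group (horizontal axis), with the group mean as a line, titled by the annotated gene and the distance to its start site. The vegfaa and dll4 panels show peaks of the same gene in opposite directions between larval epicardium and non-epicardium, and the atxn1a panel shows a peak open in every group.

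Between tcf21 and tbx18 the epicardium effect itself differed for 62 far peaks in a test of the difference, 44 with the larger log2 fold change in tcf21 and 18 with the larger in tbx18, which is 2.15% where 1.51% of all tested peaks were called, 1.1% larger in tcf21 and 0.409% larger in tbx18. This count changed with single libraries: it was 6 without tcf21 epicardium replicate 1, 38 without tcf21 epicardium replicate 2 and 11 without tcf21 non-epicardium replicate 1. It was 27 and 28 without tbx18 epicardium replicate 1 and replicate 2, and 16 without tbx18 non-epicardium replicate 1. The share of all tested peaks called changed too. In the same order it was 0.0872%, 0.906% and 0.160%, and then 0.391%, 0.507% and 0.147%. Among the far peaks, 5 were called in opposite directions by the reporters and are named for that, chosen after their values were seen. The peak chr18:24110623-24111123, 74392 bases from nr2f2, an orphan nuclear receptor gene of veins and atria, had 6.71 and 12.01 CPM in tcf21 epicardium, against 1.497 and 1.17 CPM in tcf21 non-epicardium. With tbx18 it had 2.21 and 1.03 CPM in epicardium, against 6.47 and 10.5 CPM in non-epicardium. Its levels were low in all 4 groups, and epicardium did not overlap with non-epicardium for either reporter.

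The peak chr8:1322950-1323450, 54035 bases from efna5b, an ephrin gene, had 29.1 and 15.02 CPM in tcf21 epicardium, against 6.98 and 2.33 CPM in tcf21 non-epicardium, and 4.02 and 5.13 CPM in tbx18 epicardium, against 29.7 and 20.5 CPM in tbx18 non-epicardium. The peak chr5:29725558-29726058, 54632 bases from snx19a, a sorting nexin gene, went the other way, with 2.24 and 4.51 CPM in tcf21 epicardium, against 19.95 and 22.2 CPM in tcf21 non-epicardium, and 63.0 and 53.4 CPM in tbx18 epicardium, against 22.7 and 23.2 CPM in tbx18 non-epicardium. The remaining 2, near BX247950.1 and si:dkey-208m12.2, were higher with tcf21 and lower with tbx18. The BX247950.1 peak had 11.3 and 9.75 CPM in tbx18 epicardium, against 44.6 and 9.48 CPM in tbx18 non-epicardium. Its tbx18 groups thus overlapped. For nr2f2, 5 far peaks were annotated, of which 1 was higher with tcf21 and 4 were lower with tbx18.

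Far intergenic peaks were annotated to 1218 genes, of which 588 had 1 such peak, 139 had 5 or more and 21 had 10 or more. Of the 1218, 589 carried a clone, placeholder or small RNA name, and these took 1345 of the peaks, among them 266 peaks at 116 genes of 5S rRNA, a multigene family. Chromosome 24 had the highest share of its peaks in the set, 177 of 1955 (9.05%), and chromosome 4 the lowest (1.75%). Among genes with a symbol, tsc22d3, a leucine zipper gene induced by glucocorticoids, had 17 far peaks. The AP-1 transcription factor gene jun had 16 and pcdh10b had 15. The genes ccny, celf2, fzd8a and mafba had 13 each, HDAC7 (2 of 2) and cul2 had 12 each and cpb1 had 11.

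Of the 17 far peaks at tsc22d3, none was called with tcf21, and 2 were higher and 5 lower with tbx18. Of the 16 at jun, 3 were higher and 1 was lower with tcf21, and the same counts held with tbx18. Of the 15 at pcdh10b, 4 were higher and 1 was lower with tcf21, and 5 were higher and 1 was lower with tbx18. Of the 13 at mafba, a gene of a leucine zipper transcription factor of macrophages and the hindbrain, 3 were higher and none was lower with either reporter. All 5 called peaks at HDAC7 (2 of 2), a histone deacetylase gene, were lower with tbx18, out of 12.

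**Figure D5:**
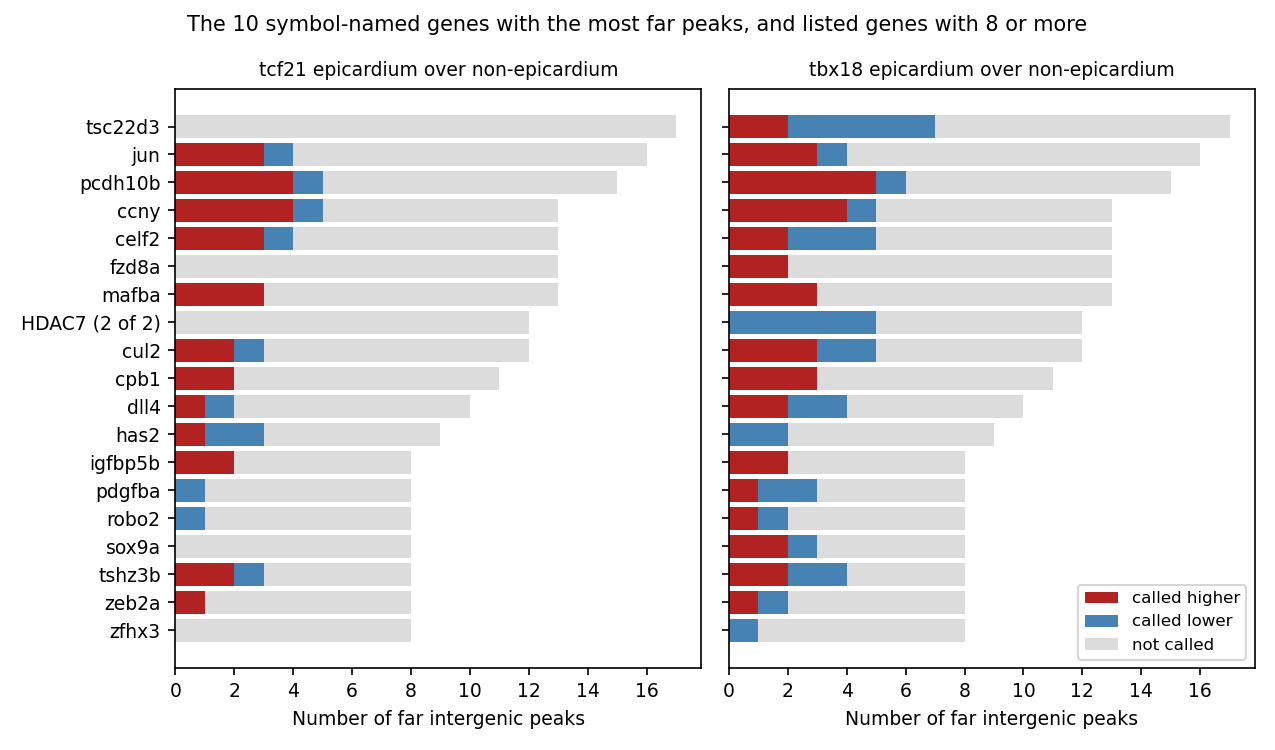
Number of far intergenic peaks (horizontal axis) of the 10 symbol-named genes with the most such peaks and of listed genes with 8 or more, split by whether the peak was called higher, called lower or not called in epicardium over non-epicardium, for tcf21 (left panel) and tbx18 (right panel). At pcdh10b 4 of 15 peaks were higher with tcf21, and at HDAC7 (2 of 2) 5 of 12 were lower with tbx18.

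At pcdh10b the called peaks reached from 66829 to 292777 bases from the start. The peak chr14:42395740-42396240 had 32.4 and 54.1 CPM in tcf21 epicardium, against 2.99 and 3.50 CPM in tcf21 non-epicardium, and 26.2 and 31.3 CPM in tbx18 epicardium, against 2.697 and 2.11 CPM in tbx18 non-epicardium. The peak chr14:42562812-42563312 had 29.1 and 49.6 CPM in tcf21 epicardium, against 6.49 and 1.17 CPM in tcf21 non-epicardium, and 48.1 and 45.7 CPM in tbx18 epicardium, against 2.16 and 0.527 CPM in tbx18 non-epicardium. The peak chr14:42762754-42763254, with the distance of opposite sign (-129422 bases), had 3.35 and 6.01 CPM in tcf21 epicardium, against 44.4 and 20.998 CPM in tcf21 non-epicardium. The 4 higher peaks of pcdh10b lay on the side of positive distances and the lower peak on the side of negative ones. RNA of pcdh10b was at 21.2, 24.7 and 7.75 CPM in larval epicardium, against 5.42, 1.91 and 4.80 CPM in larval non-epicardium, and was not called (adjusted p = 0.160).

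At jun the peak chr20:15506681-15507181, 146223 bases from the start, had 48.1 and 120 CPM in tcf21 epicardium, against 12.5 and 3.50 CPM in tcf21 non-epicardium. After cryoinjury it had 17.6, 6.11, 8.35 and 14.4 CPM, against 11.9 and 9.42 CPM after sham surgery. All adult libraries lay below both larval epicardium libraries. The RNA of jun was at 17.4, 65.9 and 90.9 CPM after cryoinjury and at 76.0 and 87.2 CPM after sham surgery, against 1534, 1143 and 2637 CPM in larval epicardium (log2 fold changes -4.93 ± 0.62 and -4.44 ± 0.72).

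Far peaks also lay in runs. When peaks whose starts were at most 10000 bases apart were joined, 1381 stood alone and 1502 fell in 552 runs of 2 or more. The longest held 19 peaks over 75431 bases, at chr24:4174465-4249895, and was annotated to ccny, a cyclin gene, and to CU462914.1. In it 4 peaks were higher and 1 was lower with tcf21, while with tbx18 it held 2 of each kind. The run of 12 at chr14:27610440-27652856, near tsc22d3, had no peak called with tcf21 and 5 lower with tbx18. The run of 10 at chr23:3329677-3379718, near mafba, had 3 higher with either reporter and none lower. Of 50 runs with 2 or more peaks called with tcf21, 33 had only higher, 6 only lower and 11 both kinds, and of 134 such runs with tbx18, 69 had only higher, 35 only lower and 30 both kinds. Runs were not counted for other peaks, so neither the runs nor their directions are shown to be particular to far peaks.

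Of 179 listed transcription factors of development, 33 were the annotated gene of 129 far peaks, out of 1093 peaks of any kind at the list's genes. Of all peaks, 4.65% were far. With tcf21, 15 of these 129 peaks were higher and 4 lower (median log2 fold change 0.03), and with tbx18, 25 were higher and 16 lower (median 0.35). The shares of all far intergenic peaks stand beside this list and those below. They were 11.5% higher and 3.75% lower with tcf21, and 22.7% higher and 12.4% lower with tbx18. No difference from these shares was tested. The higher ones with tcf21 lay near jun, mafba, tshz3b, irx1a, lhx2b, nr2f2, rxraa, tfap2a, zeb2a and zfhx4, and the lower ones near gata2a, jun, tshz3b and zic4. For mafba the peak chr23:3343043-3343543, 122424 bases from the start, had 104 and 150 CPM in tcf21 epicardium, against 41.4 and 24.5 CPM in tcf21 non-epicardium. For gata2a, a GATA factor gene of blood and endothelium, the peak chr11:3764969-3765469 had 1.01 and 0.513 CPM in tbx18 epicardium, against 14.4 and 12.6 CPM in tbx18 non-epicardium. For zic4, a zinc finger gene, the peak chr24:5001196-5001696 had 0.805 and 0.513 CPM in tbx18 epicardium, against 25.2 and 22.1 CPM in tbx18 non-epicardium. In tbx18 epicardium replicate 2 the gata2a and zic4 peaks lay below 3 counts, which were 1.54 CPM there. The list's median with tcf21 was closer to that of all peaks (-0.01) than to that of the far intergenic peaks (0.38).

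Of 93 listed genes of cell adhesion and guidance, 21 were the annotated gene of 61 far peaks, out of 631 peaks of any kind at the list's genes. Of the 61, 12 were higher and 3 lower with tcf21 (median log2 fold change 0.81), and 17 were higher and 6 lower with tbx18 (median 0.77). Of all far intergenic peaks 11.5% were higher and 3.75% lower with tcf21, and 22.7% higher and 12.4% lower with tbx18 (medians 0.38 and 0.34). The higher ones in both reporters lay near cdh2, cdh7, lrrtm4l1, nlgn1, pcdh10b and pcdh7b. For cdh2, the gene of N-cadherin, the peak chr20:17623649-17624149, 216441 bases from the start, had 16.8 and 48.1 CPM in tcf21 epicardium, against 2.99 and 4.67 CPM in tcf21 non-epicardium. The RNA of cdh2 rose in larval epicardium, with 285, 155 and 274 CPM, against 26.9, 14.1 and 26.9 CPM in larval non-epicardium (log2 fold change 3.39 ± 0.47, adjusted p = 5.76e-05). For robo2, a receptor gene of axon guidance, the peak chr15:38870670-38871170 was lower, with 1.12 and 7.51 CPM in tcf21 epicardium, against 45.9 and 45.5 CPM in tcf21 non-epicardium.

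Of 133 listed ligands, receptors and antagonists, 20 were the annotated gene of 61 far peaks, out of 544 peaks of any kind at the list's genes. Of the 61, 8 were higher and 6 lower with tcf21, and 12 were higher and 10 lower with tbx18. Their median log2 fold changes were 0.38 with tcf21 and 0.29 with tbx18, near those of all far intergenic peaks (0.38 and 0.34). Peaks near the growth factor receptor genes fgfr3 and fgfr4 were higher with both reporters. The fgfr4 peak chr21:37583683-37584183, 74343 bases from the start, had 40.3 and 87.1 CPM in tcf21 epicardium, against 5.49 and 11.7 CPM in tcf21 non-epicardium. The RNA of fgfr4 rose with it (522, 272 and 432 CPM in larval epicardium, against 61.1, 57.7 and 55.3 CPM in larval non-epicardium). For wnt9a, a Wnt ligand gene, the peak chr2:3455234-3455734 was lower, with 7.83 and 1.502 CPM in tcf21 epicardium, against 28.9 and 32.7 CPM in tcf21 non-epicardium.

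Of 51 listed genes of the extracellular matrix, 12 were the annotated gene of 24 far peaks, out of 272 peaks of any kind at the list's genes. Of the 24, 3 were higher and 2 lower with tcf21, and 4 were higher and 2 lower with tbx18. Their median log2 fold changes were 0.19 with tcf21 and 0.28 with tbx18, below those of all far intergenic peaks (0.38 and 0.34). For col4a1, a collagen gene of basement membranes, the peak chr9:8610286-8610786 had 48.1 and 22.5 CPM in tcf21 epicardium, against 3.99 and 2.33 CPM in tcf21 non-epicardium. The RNA of col4a1 rose in larval epicardium to 1900.4, 1018 and 1872.5 CPM, against 53.8, 22.0 and 42.1 CPM in larval non-epicardium. For has2, a hyaluronan synthase gene with 9 far peaks, 1 was higher and 2 were lower with tcf21, and 2 were lower with tbx18. The has2 peak chr16:15628761-15629261 had a count of 1 in each tcf21 epicardium library, against 11.5 and 20.998 CPM in tcf21 non-epicardium, which makes it at least 4.13-fold lower in epicardium. The RNA of has2 fell in larval epicardium (2.57, 5.66 and 2.42 CPM, against 43.0, 35.0 and 34.2 CPM in larval non-epicardium, adjusted p = 0.0128).

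Peaks annotated to marker genes of heart cell types were counted too. Far intergenic were 2 of 44 at epicardial, 3 of 63 at endothelial and 1 of 26 at red blood cell markers. At cardiomyocyte and leukocyte markers, 0 of 15 and 0 of 13 were far, where 4.65% of all peaks were. Among the 5 epicardial markers, 1 gene had any far peak, tbx18, with 2. The log2 fold changes of these were 1.98 and 1.53 with tbx18 (adjusted p = 0.0472 and 0.0155) and 0.29 and 0.62 with tcf21 (not called). Among endothelial markers, 2 peaks of fli1a were lower and 1 of pecam1 was higher with tbx18, and none was called with tcf21. Among red blood cell markers, 1 peak lay near cahz, a carbonic anhydrase gene, and it was higher in epicardium with tcf21 (17.9 and 33.0 CPM, against 1.995 and 9.33 CPM in non-epicardium). The RNA of cahz went the other way, with 1.62, 3.30 and 0.890 CPM in larval epicardium, against 6702, 9812 and 9914 CPM in larval non-epicardium. No far peak was annotated to the listed markers of cardiomyocytes or leukocytes.

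To ask which far peaks respond to injury, adult epicardium after cryoinjury (4 libraries) was compared with sham (2 libraries). No far peak was called by edgeR's quasi-likelihood test, where 0.00162% of all tested peaks were called, and 223 of 2881 (7.74%) had an unadjusted p under 0.05, 130 higher and 93 lower, against 4139 of all 61883 peaks (6.69%), 2012 higher and 2127 lower. DESeq2's Wald test called 1. The median log2 fold change was 0.10, against 0.01 over all peaks. The far peak with the lowest p was chr10:21323762-21324262, 80734 bases from avd, with 7.94, 16.1, 9.35 and 14.2 CPM after cryoinjury, against 53.9 and 37.7 CPM after sham surgery. It was lower in all 4 cryoinjury libraries than in either sham library (log2 fold change -1.91 ± 0.36, adjusted p = 0.0549), and its adjusted p ran from 0.00746 to 0.897 over 21 alternatives.

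The avd peak was also among those higher in larval epicardium. It had 69.3 and 91.6 CPM in tcf21 epicardium, against 3.99 and 1.17 CPM in tcf21 non-epicardium, and 26.0 and 28.7 CPM in tbx18 epicardium, against 1.44 and 2.11 CPM in tbx18 non-epicardium. Its sham level lay between those of the larval epicardium of the reporters, and its level after cryoinjury below both. The far peak with the next lowest p was chr15:44978085-44978585, 68568 bases from pdgfd, a growth factor gene, with 2.65, 9.16, 5.01 and 6.17 CPM after cryoinjury, against 20.5 and 21.02 CPM after sham surgery (adjusted p = 0.216). It had 104 and 159 CPM in larval tcf21 epicardium, above both adult groups.

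To ask how adult and larval epicardium differ, adult libraries were compared with larval tcf21 epicardium. After cryoinjury, 76 far peaks (2.64%) were higher and 381 (13.2%) lower than in larvae, while of all tested peaks 3.98% were higher, 10.1% lower and 14% called in all. After sham surgery, 36 (1.25%) were higher and 237 (8.23%) lower than in larvae, while of all tested peaks 2.34% were higher, 5.3% lower and 7.64% called in all. Of the tested intergenic peaks nearer than 50000 bases, 3.65% were higher and 12.6% lower after cryoinjury. After sham surgery, 2.12% of these nearer peaks were higher and 6.92% lower. The cryoinjury and sham comparisons share the larval libraries. The lower peaks made up 83.4% of the called far peaks after cryoinjury and 86.8% after sham surgery, but 61.9% and 72.0% when libraries were scaled by their total counts. Of all called peaks the lower ones made up 71.6% after cryoinjury and 69.4% after sham surgery with TMM, and 41.9% and 45.1% with total counts, so that over all peaks most calls were then higher in adults. Scaled in that way, all peaks had a median log2 fold change of 0.41 for cryoinjury, against 0.07 with TMM, and 0.27 for sham, against 0.03 with TMM. The median far peak lay below it with either scaling (0.21 and -0.03 with total counts, -0.12 and -0.27 with TMM). Without larval tcf21 epicardium replicate 2, 7 far peaks were higher and 212 lower after cryoinjury (6.27% of all tested peaks called), and 6 were higher and 145 lower after sham surgery (3.79% of all). Without larval tcf21 epicardium replicate 1, 21 were higher and 248 lower after cryoinjury (7.54% of all), and 10 were higher and 166 lower after sham surgery (4.17% of all). Without sham replicate 1, 10 were higher and 84 lower after sham surgery (2.63% of all), and without sham replicate 2, 13 were higher and 114 lower (3.24% of all). The calls thus fell over all peaks too.

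The largest decreases after cryoinjury were those of the pdgfd peak (log2 fold change -4.43 ± 0.38, adjusted p = 3.10e-11), of the nlgn1 peak (-3.89 ± 0.38, adjusted p = 7.31e-10) and of a ccny peak (-3.43 ± 0.43, adjusted p = 1.62e-07). The ccny peak, chr24:4247852-4248352, had 3.53, 6.98, 5.68 and 6.17 CPM after cryoinjury, against 43.6 and 84.1 CPM in larval tcf21 epicardium. The RNA of pdgfd was lower too, at 0.365, 1.43 and 1.15 CPM after cryoinjury, against 38.0, 44.8 and 59.9 CPM in larval epicardium (log2 fold change -5.58 ± 0.90, adjusted p = 0.000142). Of 229 far peaks lower after cryoinjury at tested genes, 76 (33.2%) had a gene with lower RNA and 30 (13.1%) with higher RNA. Of 46 higher ones, 9 (19.6%) had a gene with lower RNA and 3 (6.52%) with higher RNA. Of 1367 not called, 24.2% had lower and 16.2% higher RNA. Over all peaks, 24.4% of the lower ones had lower and 16.9% higher RNA, and 21.4% of the higher ones had higher and 16.7% lower RNA. After sham surgery the largest decreases lay near rxraa, a retinoid receptor gene, celf2, an RNA-binding protein gene, and socs3a, a gene of a suppressor of cytokine signalling. The socs3a peak, chr3:57290650-57291150, had 2.73 and 1.45 CPM after sham surgery, against 35.8 and 48.1 CPM in larval tcf21 epicardium. The rxraa peak, chr21:17680892-17681392, had 1.36 and 2.17 CPM after sham surgery, against 36.9 and 52.6 CPM in larval tcf21 epicardium. The celf2 peak, chr4:24452868-24453368, had 2.73 and 0.725 CPM after sham surgery, against 42.5 and 33.0 CPM in larval tcf21 epicardium.

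Of the far peaks higher in adults, those near nhsa, adamts16, spry2 and dkk1a had a count of 1 in both larval tcf21 epicardium libraries. The peak chr23:41208521-41209021, 86395 bases from nhsa, had 14.1, 17.4, 18.7 and 20.8 CPM after cryoinjury and 12.97 and 22.5 CPM after sham surgery, against the larval tcf21 epicardium libraries at a count of 1, at least 4.52-fold higher after cryoinjury and at least 4.51-fold higher after sham surgery. Without larval tcf21 epicardium replicate 1 its call after sham surgery was lost (adjusted p = 0.0565, over 21 alternatives 0.00126 to 0.0565). It was also open in larvae with tbx18, at 26.6 and 27.7 CPM in tbx18 epicardium and 37.0 and 53.7 CPM in tbx18 non-epicardium. The peak chr16:1014462-1014962 near adamts16, a metalloprotease gene, had 10.6, 21.4, 19.4 and 16.5 CPM after cryoinjury, at least 4.31-fold higher than in larval tcf21 epicardium. The peak chr1:4460926-4461426 near spry2, an inhibitor gene of growth factor signalling, had 18.5, 20.9, 10.7 and 11.1 CPM after cryoinjury, at least 3.90-fold higher than in larval tcf21 epicardium. Without larval tcf21 epicardium replicate 1 the calls of the adamts16 and spry2 peaks were lost (adjusted p = 0.0686 and 0.104, over 21 alternatives 0.000680 to 0.0686 and 0.00202 to 0.104), and without replicate 2 that of spry2 was lost (adjusted p = 0.0673). The peak chr13:40961494-40961994 near dkk1a, a gene of a Wnt antagonist, had 18.1 and 18.1 CPM after sham surgery, at least 4.61-fold higher than in larval tcf21 epicardium, and its call was lost without either larval library (adjusted p = 0.0900 and 0.0561).

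At mafba a far peak went against its neighbours. The peak chr23:3379218-3379718, 86249 bases from the start, had 14.996, 34.9, 42.7 and 26.5 CPM after cryoinjury and 26.6 and 40.6 CPM after sham surgery, against 4.47 and 1.502 CPM in larval tcf21 epicardium. The peak chr23:3343043-3343543 of the same gene had 14.996, 28.8, 19.7 and 13.6 CPM after cryoinjury and 28.7 and 26.8 CPM after sham surgery, against 104 and 150 CPM in larval tcf21 epicardium. Of the 13 far peaks at mafba, 1 was higher and 3 were lower than in larvae after cryoinjury, and the same counts held after sham surgery. The call of the higher peak after sham surgery was lost without larval tcf21 epicardium replicate 2 (adjusted p = 0.0654, over 21 alternatives 0.000929 to 0.0654). The RNA of mafba was at 157, 127 and 128 CPM after cryoinjury and 91.1 and 72.0 CPM after sham surgery, against 108, 49.8 and 63.8 CPM in larval epicardium, and neither difference was called.

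The tbx18 libraries share none with the adult comparisons, so they give a separate view of the larval peaks. Of the 655 far peaks higher in tbx18 epicardium, 183 were lower after cryoinjury than in larval tcf21 epicardium, which is 27.9% of the first set and 48.0% of the 381 in the second, and 6 were higher. Over all peaks these shares were 25.9% and 35.5%. Of the 358 far peaks lower in tbx18 epicardium, 27 (7.54%) were lower and 9 (2.51%) higher after cryoinjury, against 5.48% and 4.24% of the 8098 peaks of any kind lower in tbx18 epicardium. In none of the 5 pairwise comparisons was a call made for 1545 far peaks (53.6%), against 59.5% of all peaks.

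The far peaks most open in every group were chosen by their lowest group mean in CPM, which was not corrected for peak width. Among them, the atxn1a peak was wider than the usual 501 bases. The peak chr19:32679037-32680428, 54953 bases from atxn1a, had 103 and 146 CPM in tcf21 epicardium, 85.8 and 58.3 CPM in tcf21 non-epicardium, 129 and 132 CPM in tbx18 epicardium and 156 and 168 CPM in tbx18 non-epicardium. After cryoinjury it had 77.6, 82.0, 84.5 and 61.3 CPM, against 101 and 86.2 CPM after sham surgery. It was called in none of the 5 comparisons. The peak chr20:54992939-54993439 near pak7, a kinase gene, varied widely within groups, with 148 and 311 CPM in tcf21 epicardium, against 192 and 355 CPM in tcf21 non-epicardium, and 161 and 20.01 CPM in tbx18 epicardium, against 170 and 54.3 CPM in tbx18 non-epicardium.

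RNA of the annotated genes was set beside their peaks. Of the 1218 genes, 945 were in the RNA table and 677 passed the filter on low counts, and these were the annotated genes of 1642 far peaks. In larval epicardium against non-epicardium, the RNA of 75 (11.1%) was higher and of 36 (5.32%) lower, where of all 20745 tested genes 5.68% were higher, 7.77% lower and 13.4% called in all. The median log2 fold change of the genes near far peaks was 0.82, against 0.32 over all genes. The lower genes made up 32.4% of those called, and 16% when libraries were scaled by total counts, with which the median of all genes was 0.93 and that of the genes near far peaks 1.45. Of all called genes the lower ones made up 57.8% with TMM and 36.7% with total counts. Without larval non-epicardium replicate B, 40 of the genes near far peaks were higher and 22 lower, where 7.58% of all genes were called. The largest increases were those of tinagl1, tbx18 and irf8, and the largest decreases those of cahz, tmem229b and ttc36. RNA of tbx18 was at 262, 83.8 and 217 CPM in larval epicardium, against 0.542, 3.25 and 1.46 CPM in larval non-epicardium. RNA of irf8, a transcription factor gene of macrophages, was at 294, 314 and 787 CPM in larval epicardium, against 14.994, 7.64 and 7.30 CPM in larval non-epicardium, and the leukocyte markers were higher in the same libraries (698 to 762 CPM, against 99.8 to 118 CPM). The part of leukocytes in these values was not tested.

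The direction of a far peak was set beside that of its gene. Of 205 far peaks higher in tcf21 epicardium at tested genes, 47 (22.9%) had an annotated gene with higher RNA and 13 (6.34%) with lower RNA, in the same larval populations. Of 62 far peaks lower in tcf21 epicardium, 8 (12.9%) had a gene with higher RNA and 5 (8.06%) with lower RNA. Of 1375 far peaks not called, 12.7% had a gene with higher and 6.11% with lower RNA. Over all peaks, 28.7% of the higher ones had a gene with higher RNA and 2.82% with lower RNA, while 5.77% of the lower ones had a gene with higher and 18.8% with lower RNA. Far peaks of the same gene share its RNA value, and the 205 peaks belonged to 152 genes, of which 33 (21.7%) had higher and 8 (5.26%) lower RNA. Whether these shares differ between far peaks and all peaks was not tested.

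After cryoinjury against sham, the RNA of 3 of the 677 genes was higher and of none lower, where 0.227% of all genes were higher, 0.0916% lower and 0.318% called in all. An unadjusted p under 0.05 was found for 134 of the 677, against 3879 of all 20745 genes. The 3 called genes were ap5s1, an adaptor complex gene, gpn1, a GTPase gene, and itga4, an integrin gene. RNA of itga4 was at 101, 73.2 and 28.2 CPM after cryoinjury, against 4.06 and 4.24 CPM after sham surgery (edgeR quasi-likelihood, adjusted p = 0.0248). The leukocyte markers were higher in the same libraries, at 339 to 627 CPM after cryoinjury, against 127 to 239 CPM after sham surgery, and their part in these values was not tested. DESeq2 called 49 of the genes (7.24%), against 6.97% of all genes, and edgeR called none of 472 when only the adult groups were fitted (62 at an unadjusted p under 0.05). Without sham replicate 4, 14 were higher and 5 lower (2.40%), against 2.198% of all genes called. Without sham replicate 12, 3 were higher and 5 lower, where of all genes 60 were higher and 188 lower (1.01% called). Without cryoinjury replicate 7, 5 were higher and 1 lower, and without cryoinjury replicate 9, 5 were higher and 2 lower. No far peak of any gene was called in accessibility between cryoinjury and sham, and so none of the 4 at itga4.

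Against larval epicardium, the RNA of 101 genes (14.9%) was higher and of 188 (27.8%) lower after cryoinjury, where 12.1% of all genes were higher, 26% lower and 38.1% called in all. After sham surgery 97 (14.3%) were higher and 176 (26.0%) lower, where 11.5% of all genes were higher, 25.6% lower and 37.2% called in all. Without sham replicate 4, 60 were higher and 71 lower than in larvae after sham surgery, and without sham replicate 12, 75 were higher and 70 lower. Of all genes, 14.4% and 14.7% were called in these fits. With total count scaling the lower genes made up 78.8% of those called after sham surgery, against 64.5% with TMM, and of all called genes 81.0% with total counts, against 69.0% with TMM. The largest increases after cryoinjury were those of prox1a, a homeobox gene, angptl2a, a secreted factor gene, and col12a1b, a collagen gene. RNA of prox1a was at 86.9, 249 and 212 CPM after cryoinjury and 476 and 176 CPM after sham surgery, against 0.541, 3.09 and 0.763 CPM in larval epicardium. The cardiomyocyte markers were higher in the adult RNA libraries (20848 to 21167 CPM after sham surgery, against 225 to 1059.7 CPM in larval epicardium), and their part in these values was not tested.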

How the data were processed

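Accessibility was measured by ATAC-seq in 14 libraries of 6 groups and RNA by RNA-seq in 11 libraries of 4 groups. The deposited ATAC table holds read counts per peak of 1 shared peak set, with the lowest value at 1, and the deposited annotation gives each peak's feature, nearest start site, signed distance and GC and CpG fraction, as the authors made them. In the ATAC table, 14 further columns of per-sample values were not used. The deposited RNA table holds read counts per gene. Larval RNA columns could be tied to a group but not to single samples, and are lettered A to C within a group. The submitters' processing notes name GRCz10, Bowtie 1.2.3, SAMtools 1.10, MACS2 2.2.7.1, HOMER, DiffBind 3.0.13, STAR 2.7.3a, featureCounts and edgeR 3.32.1, with no order or role. The meaning of the sign of the distance is not given in the sources used here.

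Counts of each assay were filtered (filterByExpr, minimum count 10, minimum total 15), scaled by TMM and tested with edgeR 4.0.16 (R 4.3.3), quasi-likelihood, all groups of the assay in 1 fit, with p adjusted by Benjamini-Hochberg over all peaks or genes and a threshold of 0.05. Log2 fold changes are given ± SE. Shares of counts were compared by exact permutation tests, two-sided, and intervals were computed with SciPy 1.17.1 in Python 3.11.15. Alternatives included DESeq2 1.42.0 and leaving out each library. Intervals and floors cover counting error only.

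Members and gene lists were chosen with earlier results of these data known. Peaks were named by rule: per comparison and direction the 3 with the largest change among called peaks whose higher group averaged 5 CPM or more and whose libraries did not overlap, with a gene symbol that is no clone name; where none was called, the 2 with the lowest p; the 3 most open in every group; the 3 farthest; and listed genes' peaks called in both reporters.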

Additional observations from a re-analysis of the deposited data

Results flagged for a closer look

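Among 68 checks of the 4 cryoinjury libraries for a single library far from the others, 3 peaks stood out, and chance alone gives about 1 in 20. The dmrta2 peak ran from 2.65 to 11.1 CPM, and the gap of 1 library to the nearest was 0.831 of that range. The pkdcca peak ran from 3.53 to 6.59 CPM with a gap of 0.921 of the range. The tshz3b peak chr7:46424346-46424846 ran from 4.36 to 9.05 CPM with a gap of 0.862 of the range. All 3 were low in adults, and none was called between cryoinjury and sham.

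At 5 far peaks the epicardium effect was called in opposite directions by the reporters, with 4 higher with tcf21 and 1 higher with tbx18. Over all peaks, 59 were higher with tcf21 and lower with tbx18, and 13 were the reverse. The log2 fold change with tcf21 and with tbx18 was 1.37 and -1.41 near BX247950.1 (difference 2.78), 2.68 and -2.18 near nr2f2 (difference 4.86), and 1.65 and -2.02 near si:dkey-208m12.2 (difference 3.67). It was -2.67 and 1.35 near snx19a (difference -4.02) and 2.09 and -2.49 near efna5b (difference 4.58). Near BX247950.1 the tbx18 epicardium libraries overlapped with the tbx18 non-epicardium libraries.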

How the results depend on the processing

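Values here are percentages of tested far peaks, or of tested genes annotated to them, that were called. Over the alternatives, 170 recomputed percentages stayed within 1.5 times the reported value and 40 did not. Fitting only the compared groups, which leaves fewer peaks or genes tested, gave 30.04% for tcf21, 0.0352% for cryoinjury against sham, 16.5% for sham against larvae, 0.742% for the difference between reporters, 33.6% for larval RNA and 0% for RNA of cryoinjury against sham. In the same order, the shares over all tested peaks or genes were 21.2%, 0.0164%, 11.6%, 0.308%, 29.1% and 0%. For cryoinjury against sham the avd peak was the only far peak called by DESeq2 (0.0347%, against 0.00323% of all peaks) and with halved counts (0.0387%, against 0.0228%). The RNA of that comparison gave 1.62% with DESeq2 size factors, 2.51% with total counts, 7.24% with DESeq2 and 1.71% without the filter. Over all genes these shares were 0.800%, 1.35%, 6.97% and 1.66%. The cause was not tested.

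Leaving out 1 library gave 6.04% to 16.1% for tcf21, 19.7% to 37.2% for tbx18, 0% to 0.0347% for cryoinjury against sham, 7.60% to 17.4% for cryoinjury against larvae, 3.26% to 11.5% for sham against larvae and 0.208% to 3.09% for the difference between reporters. For RNA it gave 9.19% to 17.5% in larvae, 0.295% to 2.40% for cryoinjury against sham, 33.0% to 53.0% for cryoinjury against larvae and 16.5% to 45.2% for sham against larvae. The differences in the share of counts kept their sign in all 39 recomputed values.

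Same-numbered ATAC libraries deviated together with correlations of -0.0404 to 0.121, so the numbers were not taken as pairs. With the replicate block, cryoinjury against larvae gave 7.60% called (31 higher and 188 lower), against 5.83% of all peaks, and the other ATAC comparisons stayed within 1.5 times. The block for larval RNA was planned and not run, since column and title numbers differ.

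For the 26 named differences, 532 of 546 recomputed values kept their direction and side of the threshold and none changed sign. The call was lost in 7, each without a larval tcf21 epicardium library (nhsa and mafba after sham surgery, adjusted p = 0.0565 and 0.0654, and the adamts16, spry2 and dkk1a values given above). The avd difference between cryoinjury and sham passed in 7 (adjusted p = 0.00746 to 0.0470). The shallowest ATAC library limits larval tcf21 epicardium, where 3 counts correspond to up to 4.51 CPM.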
